A study of Homo sapiens with 6 samples.

Results

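DUSP1, DUSP4, DUSP5, DUSP6, DUSP10, SPRY2, SPRY4, SPRED1, SPRED2 and PHLDA1 are transcripts of the negative feedback on MAP kinase signalling. These 10 genes were chosen by symbol out of 60623 genes in the deposited table, with earlier results of these data known. Their counts beside those of all genes are therefore descriptions. All 10 were present once and passed the filter on low values. LX2, an established line of human hepatic stellate cells, was kept in medium with 2% serum, and RNA was measured in 6 libraries 36 h after transfection. In 3 libraries the cells, labelled wild type, received the control siRNA siNC. In the other 3 they received siSHMT2 and are labelled as SHMT2 knockdown. SHMT2 encodes the mitochondrial serine hydroxymethyltransferase. Every library came from this 1 line, no untransfected cells were analysed here, and whether replicates were separate cultures is not stated in the labels. P-values therefore reflect only how far these libraries lie apart, which may be technical spread. RNA was pooled over each culture, so less RNA per cell and fewer cells with the transcript cannot be told apart.

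In the ERK branch of MAP kinase signalling, growth factor receptors load RAS with GTP, and RAS starts the kinase chain from RAF through MEK to ERK. ERK then raises transcription of its own brakes. Dual-specificity phosphatases (DUSPs) remove phosphate from both the threonine and the tyrosine that activate a MAP kinase, while Sprouty and SPRED proteins act further up, between the receptor and RAF. In stellate cells this branch is best known for carrying the growth signal of PDGF.

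In cells given siSHMT2, 6 of the 10 feedback transcripts fell. By limma 0 rose (1, DUSP1, at an unadjusted p under 0.05, and 1 by limma voom on recovered reads). DUSP6 and SPRED1 fell most, to 45.8% and 38.8% of the siNC mean, followed by DUSP10 (54.9%), SPRY4 (58.7%), DUSP4 (61.8%) and PHLDA1 (71.1%). DUSP5, SPRY2 and SPRED2 were not called, and DUSP1 had higher values in every siSHMT2 library, short of the threshold. A gene was called by limma on log2(FPKM + 1) at an adjusted p under 0.05 over all 10865 genes tested. Of those genes, 9.85% were called lower and 6.07% higher, so 0 higher of 10 is near the background. After rescaling to TPM the split over all genes was 620 lower and 686 higher, against 1070 lower and 659 higher as deposited, and the median of all genes moved from 0.02 to 0.11, while 5 of the 10 members were still called lower. Scaling to plain read sums gave 767 lower and 796 higher, and voom 853 lower and 914 higher, with 6 members lower in each. The median log2 difference of the members was -0.52. In 6 of 10 members every siSHMT2 library lay below every siNC library, as was the case for 18.6% of all genes tested.

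**Figure D1:**
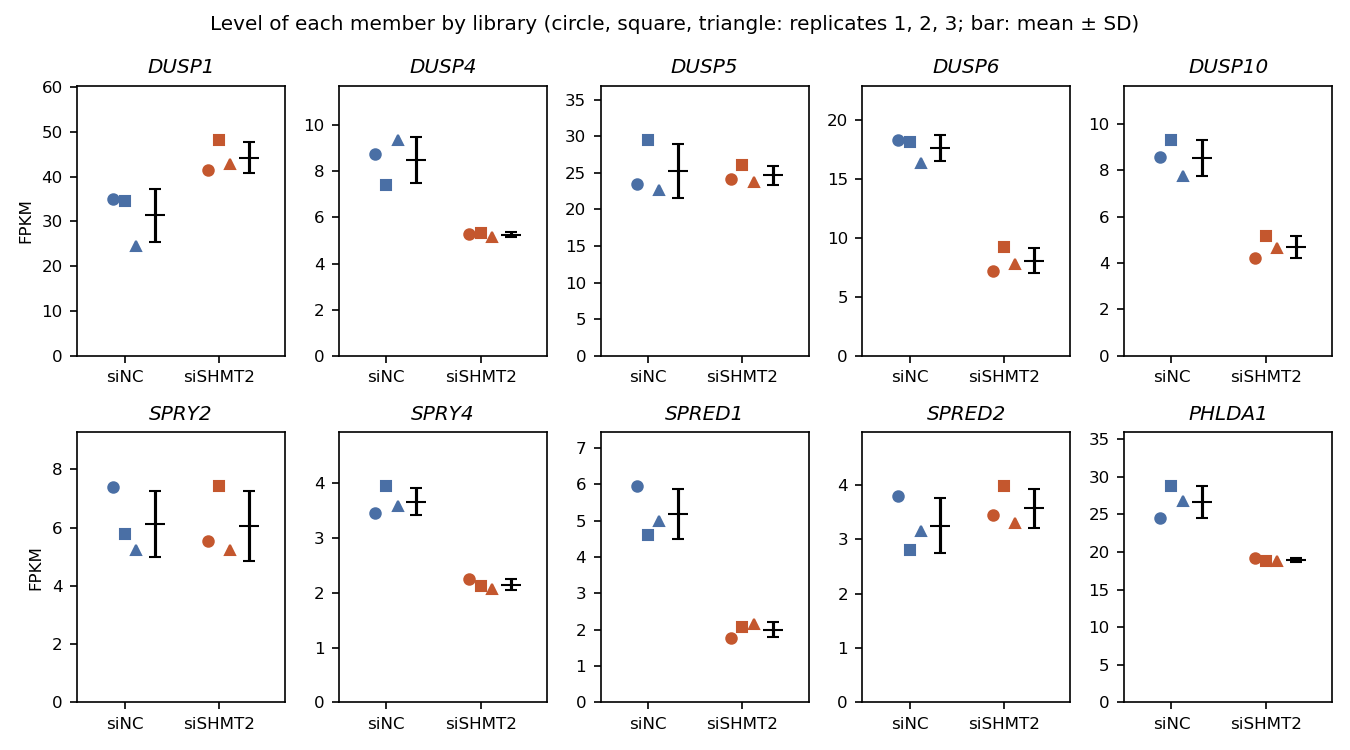
FPKM of each member (vertical axis, from 0, its own scale in each panel) in the 3 siNC (blue) and 3 siSHMT2 (orange) libraries; the marker shape gives the replicate number and the black bar the mean ± SD. DUSP4, DUSP6, DUSP10, SPRY4, SPRED1 and PHLDA1 have all siSHMT2 points below all siNC points, DUSP1 has them all above, and DUSP5, SPRY2 and SPRED2 overlap.

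SHMT2 itself was 40.8, 56.3 and 45.1 FPKM in siNC and 2.25, 2.10 and 2.42 FPKM in siSHMT2. Recovered reads numbered 14722344 to 15669139 per library, and the median SD of a gene on the log2 scale was 0.191 among siNC and 0.105 among siSHMT2 libraries. Of 9 stellate cell markers 7 had a mean of at least 1 FPKM, with DES and ACTA2 below it, and 0 of 4 hepatocyte and 0 of 4 endothelial markers did. Of the cholangiocyte markers KRT7 and SOX9 were above it and EPCAM and KRT19 below; of the immune markers CD14 was above it, while PTPRC was at most 0.0132 FPKM and CD3E was at 0. The summed stellate markers spanned 1840 to 2710 FPKM in siNC and 1430 to 1640 FPKM in siSHMT2. Most of that sum was VIM (739 to 930 and 473 to 527 FPKM), the 1 marker of the 9 whose groups did not overlap, and TIMP1; ACTA2 was 0.209 to 0.555 FPKM in siNC and 0.510 to 0.985 FPKM in siSHMT2. Their part in the results below was not tested.

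Per unit length, DUSP1 was the most abundant member, with a mean of 37.8 FPKM over the 6 libraries, above 87.4% of all genes tested. DUSP5 (24.9 FPKM) and PHLDA1 (22.8 FPKM) came next, and DUSP6 followed at 12.9 FPKM. Within siNC the ranges of DUSP1, DUSP5 and PHLDA1 overlapped, and in siNC replicate 3 PHLDA1 (26.7 FPKM) was above DUSP1 (24.5 FPKM). DUSP4, DUSP10 and SPRY2 had means of 6.09 to 6.87 FPKM over the 6 libraries. Within siNC, DUSP4 (8.50 FPKM) and DUSP10 (8.54 FPKM) overlapped and SPRY2 averaged 6.13 FPKM, while in siSHMT2 SPRY2 (6.05 FPKM) had the highest mean of these, above DUSP4 (5.25 FPKM) and DUSP10 (4.69 FPKM). SPRED1, SPRED2 and SPRY4 were the lowest, at 2.90 to 3.59 FPKM. Reads behind a single value ran from 192 for DUSP10 to 3453 for PHLDA1.

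DUSP6 (ENSG00000139318, chromosome 12, 89347235 to 89352501 on the minus strand) encodes the cytoplasmic phosphatase that acts on ERK, and its transcript is widely used as a readout of ERK activity. It was 18.3, 18.2 and 16.4 FPKM in siNC and 7.23, 9.24 and 7.79 FPKM in siSHMT2. The highest siSHMT2 library lay well under the lowest siNC library. DUSP6 fell by 1.04 on the log2 scale (SE 0.114, limma adjusted p = 0.00126).

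DUSP4 (ENSG00000120875) encodes a nuclear phosphatase that is itself induced by ERK. Its level was 8.75, 7.39 and 9.35 FPKM in siNC and 5.28, 5.33 and 5.14 FPKM in siSHMT2. The siSHMT2 libraries were almost level with each other and below every control. DUSP4 fell by 0.60 (SE 0.105, limma adjusted p = 0.00849). It was not called after rescaling to TPM (log2 difference -0.56, adjusted p = 0.0633; 0.000167 to 0.0633 over 15 alternatives).

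DUSP5 (ENSG00000138166, chromosome 10, 110497907 to 110511533, plus strand) encodes the nuclear counterpart of DUSP6, which also acts on ERK. It was 23.5, 29.5 and 22.7 FPKM in siNC and 24.1, 26.1 and 23.7 FPKM in siSHMT2. The 3 siSHMT2 values lay inside the siNC range. The log2 difference was -0.02, with a 95% interval from -0.31 to 0.27, which does not reach the value of DUSP6 (limma adjusted p = 0.923).

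DUSP10 (ENSG00000143507, chromosome 1, 221701424 to 221742089, minus strand) encodes a phosphatase that prefers the stress kinases JNK and p38 to ERK. Its level was 8.57, 9.30 and 7.75 FPKM in siNC and 4.24, 5.18 and 4.65 FPKM in siSHMT2. The groups were apart, with the siSHMT2 mean at 54.9% of the siNC mean. DUSP10 fell by 0.75 (SE 0.108, limma adjusted p = 0.00369).

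DUSP1 (ENSG00000120129, chromosome 5, 172768096 to 172771195, minus strand) encodes a nuclear phosphatase of ERK, JNK and p38 whose transcript is induced by growth factors and by stress. It was 35.0, 34.5 and 24.5 FPKM in siNC and 41.5, 48.1 and 42.9 FPKM in siSHMT2. Every siSHMT2 library was above every siNC library, but siNC replicate 3 was far below the other 2 controls. The log2 difference was 0.50 (SE 0.155, 95% interval 0.14 to 0.86, limma adjusted p = 0.0682). DUSP1 was called higher without siNC replicate 1 (0.58, adjusted p = 0.0468), with array weights (0.69, adjusted p = 0.00183) and by limma voom on recovered reads (0.59, adjusted p = 0.0372), and over 15 alternatives its adjusted p ran from 0.00183 to 0.212. Without siNC replicate 3 the difference was 0.34 (limma adjusted p = 0.127), the smallest of the 15.

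The summed level of the 5 DUSP transcripts overlapped between the groups, at 91.2 ± 9.44 FPKM in siNC and 86.9 ± 6.26 FPKM in siSHMT2 (SD, n = 3), while its make-up differed. DUSP1 held 37.1%, 34.9% and 30.4% of the sum in siNC and 50.4%, 51.2% and 51.0% in siSHMT2. In siSHMT2 cells about as much DUSP1 transcript was thus present as of the other 4 DUSPs together. The ratio of DUSP6 to DUSP1 within a library was 0.524 to 0.668 in siNC and 0.174 to 0.192 in siSHMT2.

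Sprouty proteins are phosphorylated after growth factor stimulation and then hold back RAS and RAF activation. SPRY4 (ENSG00000187678, chromosome 5, 142310427 to 142326455, minus strand) was 3.46, 3.93 and 3.57 FPKM in siNC and 2.25, 2.11 and 2.07 FPKM in siSHMT2. The groups did not overlap and the siSHMT2 libraries were close together. SPRY4 fell by 0.56 (SE 0.095, limma adjusted p = 0.00711). Its antisense neighbour SPRY4-AS1 lies on the other strand of the same stretch at 0.1515 to 0.7272 FPKM; the sources used here do not say whether counting used strand, so reads of this pair cannot be told apart.

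SPRY2 (ENSG00000136158, chromosome 13, 80335976 to 80341126, minus strand), the other Sprouty member, was 7.40, 5.78 and 5.22 FPKM in siNC and 5.53, 7.41 and 5.22 FPKM in siSHMT2. Both groups covered the same range. The log2 difference was -0.02, with a 95% interval from -0.38 to 0.35 (limma adjusted p = 0.958). That interval is wide and overlaps the upper end of the interval of SPRY4 (-0.78 to -0.34).

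SPRED proteins sit at the membrane and bring neurofibromin, the RAS-inactivating protein encoded by NF1, to RAS. SPRED1 (ENSG00000166068, chromosome 15, 38252836 to 38357249, plus strand) was 5.94, 4.60 and 4.98 FPKM in siNC and 1.78, 2.08 and 2.16 FPKM in siSHMT2. Each siSHMT2 value was under 50% of the lowest siNC value. SPRED1 fell by 1.04 (SE 0.115, limma adjusted p = 0.00136).

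SPRED2 (ENSG00000198369, chromosome 2, 65310851 to 65432637, minus strand) was 3.79, 2.80 and 3.15 FPKM in siNC and 3.44, 3.97 and 3.29 FPKM in siSHMT2. The groups overlapped. The log2 difference was 0.11, with a 95% interval from -0.17 to 0.39 (limma adjusted p = 0.588), apart from the interval of SPRED1 (-1.30 to -0.77). SPRED1 was thus the more abundant of the pair in all siNC libraries, with 1.57, 1.65 and 1.58 times the FPKM of SPRED2, and the less abundant in all siSHMT2 libraries, with 0.516, 0.524 and 0.658 times.

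PHLDA1 (ENSG00000139289, chromosome 12, 76025447 to 76033932, minus strand) encodes a pleckstrin homology-like protein whose transcript follows ERK activity in many cell lines. Its level was 24.5, 28.7 and 26.7 FPKM in siNC and 19.2, 18.8 and 18.8 FPKM in siSHMT2. All siSHMT2 libraries were lower, at 71.1% of the siNC mean. PHLDA1 fell by 0.47 (SE 0.10, limma adjusted p = 0.0189), the smallest of the 6 falls. Its call was lost with the replicate block (adjusted p = 0.0678), and when siNC replicate 3 (0.0508) or siSHMT2 replicate 1, 2 or 3 (0.0943, 0.0830 and 0.0880) was left out. Its log2 difference was between -0.48 and -0.46 in these, and its adjusted p ran from 0.000882 to 0.0943 over 15 alternatives.

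**Figure D2:**
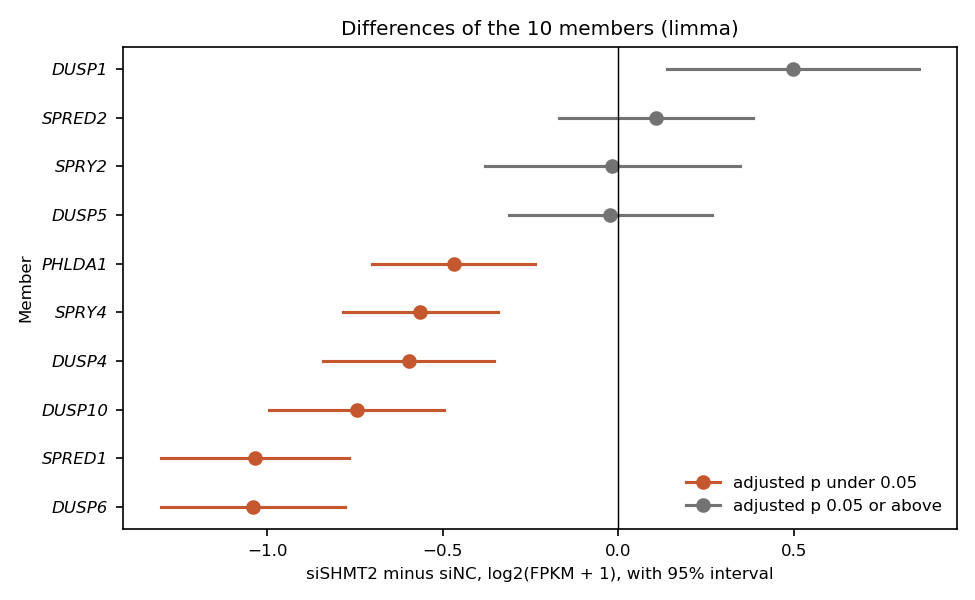
Difference between siSHMT2 and siNC on the log2(FPKM + 1) scale (horizontal axis) for each member, with its 95% interval from limma; orange marks an adjusted p under 0.05. The intervals of DUSP6 (-1.30 to -0.78) and SPRED1 (-1.30 to -0.77) lie furthest below 0, and those of DUSP5, SPRY2 and SPRED2 cover 0.

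Related members were also set against each other within each library, since the log2 ratio of 2 transcripts of 1 library does not depend on its scaling. The ratio of DUSP6 to DUSP5 differed by -1.11 between siSHMT2 and siNC on the log2 scale (mean -0.51 ± 0.17 in siNC and -1.62 ± 0.12 in siSHMT2, SD, n = 3). That of SPRY4 to SPRY2 differed by -0.75 (-0.73 ± 0.32 and -1.48 ± 0.29), and that of SPRED1 to SPRED2 by -1.51 (0.68 ± 0.04 and -0.83 ± 0.20). The ratio of DUSP6 to DUSP1 differed by -1.64 (-0.81 ± 0.20 and -2.46 ± 0.07). In each of these 4 ratios the 3 siSHMT2 libraries lay below the 3 siNC libraries, and the exact two-sided permutation test gave p = 0.1 (0.1 after adjustment over the 4 ratios), the smallest that 3 against 3 allows. The ratios were picked after the values were seen.

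The 3 members that fell most, DUSP6, SPRED1 and DUSP10, shared a feature of the transcript: their 3′ UTRs held GACTTTA or ACTTTAA. Across 9388 tested protein-coding genes other than SHMT2, these were the 7-base words whose presence went most strongly with a lower log2 difference, with the length and GC content of the 3′ UTR in the model. The words were chosen on these same differences, so what follows is a description. The sites are shown with their surroundings, 5′ to 3′ on the transcript (GENCODE release 29, GRCh38), because the 3 most reduced members hold them. Capitals mark the word.
DUSP6, chr12:89348556-89348584, minus strand: gcagcatgcttGACTTTAccaattctgat
DUSP6, chr12:89348356-89348384, minus strand: atcatgggctcACTTTAAaaaaagaaaga
DUSP6, chr12:89347316-89347344, minus strand: ttcaagctaaaGACTTTAtatcttgccat
SPRED1, chr15:38352985-38353013, plus strand: tgttccaacaaACTTTAAagtaccttgaa
DUSP10, chr1:221702043-221702071, minus strand: agatactacacACTTTAAaccaattaaaa

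DUSP6 thus held 3 sites in a 3′ UTR of 2022 bases, SPRED1 1 site in 5585 bases and DUSP10 1 site in 988 bases. The other 7 members held neither word. Of all searched genes 24.6% held either word, which is near the share among the members, so the words are not particular to them. Among those 7, DUSP4, SPRY4 and PHLDA1 were called lower, although their 3′ UTRs were long (3962, 3782 and 4672 bases), and DUSP1, DUSP5, SPRY2 and SPRED2 were not called (672, 1118, 782 and 2650 bases). Of all searched genes, 23.9% of those with either word and 5.76% of those with neither were called lower. Either word was present in 57.5% of genes called lower, 10.5% of genes called higher and 21.6% of genes not called. These sets also differed in the median length of the 3′ UTR (1952, 1494 and 1244 bases) and in its GC content (37.97%, 48.27% and 43.67%), which the shares do not take into account. The siRNA sequences were not used here, and the part of the words in the members' differences was not tested.

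Other genes of the pathway, taken from 6 lists that were also chosen with earlier results of these data known, give the setting. Of 79 genes 58 were tested, with 10 lower and 4 higher and a median log2 difference of -0.03, against 0.02 over all genes. Over all genes tested 9.85% were lower and 6.07% higher, and the 4 higher of 58 are near that share. The 10 lower include FOS and FRS2, which passed the filter on low values only through siNC and are no support for a fall. Of the 10, 6 were in the list of other transcripts induced through ERK, so they do not describe the pathway lists as a whole.

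Transcripts of other genes induced through ERK had 6 of 13 tested members lower and 0 higher by limma (1, IER2, at an unadjusted p under 0.05, and 1 by voom), with a median of -0.53. Over all genes tested 9.85% were lower and 6.07% higher, so 0 higher of 13 is near the background. The 13 and the median include FOS and IER3, which passed the filter on low values only through siNC and are no support for a fall. IER3 averaged 1.46 FPKM in siNC and 0.549 FPKM in siSHMT2 and was not called. FOSL1, a FOS-family transcription factor, was 266, 326 and 292 FPKM in siNC and 137, 112 and 133 FPKM in siSHMT2, and fell by 1.20 (SE 0.143, limma adjusted p = 0.00174). The G1 cyclin CCND1 was 255, 393 and 274 FPKM in siNC and 131, 122 and 136 FPKM in siSHMT2, and fell by 1.21. In both, all siSHMT2 libraries were far below the controls. The ETS factor ETV5 and the ephrin receptor EPHA2 fell by 0.87 and 0.82 (limma adjusted p = 0.00182 and 0.00384). Calls of these 4 genes held in all 15 alternatives.

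The other 2 called members of that list, named after their values were seen, were FOS and the cytokine LIF, which fell by 0.93 and 0.53 (limma adjusted p = 0.0375 and 0.0174). FOS averaged 2.14 FPKM in siNC and 0.583 FPKM in siSHMT2, so it passed the filter on low values only through siNC, where it was high, and its call is no support for a fall of the list. FOS rested on 25 to 176 reads per library and was called in 6 of 14 alternatives (adjusted p 0.000656 to 0.153); LIF was called in 7 of 14 (0.00108 to 0.0779). FOS lost its call when siNC replicate 1 or 3 or any 1 siSHMT2 library was left out, and LIF when siNC replicate 3 or any 1 siSHMT2 library was. The early genes EGR1 (15.2 ± 4.58 and 13.4 ± 0.549 FPKM) and MYC (13.5 ± 2.88 and 10.3 ± 0.467 FPKM) were not called (SD, n = 3), and IER2 had higher values (38.5 ± 8.21 and 55.9 ± 9.38 FPKM, limma adjusted p = 0.0969). Of the 6 called, FOS, EPHA2 and ETV5 held either word. Among genes called in the other lists, RASA2, MAPK14 and MAP3K20, all lower, and MRAS, higher, also held either word. FRS2, lower, and PTPN11, MAPK11 and ERRFI1, all higher, held neither.

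For the kinases that carry the ERK signal, no change passed the main limma test. Of 11 tested genes of this list, 0 were called lower and 0 higher by limma, with a median of 0.12; with 9.85% lower and 6.07% higher over all genes, 0 of 11 is near the background. At an unadjusted p under 0.05, 0 were lower and 2 higher (MAPK3 and RPS6KA3), and voom called 0 lower and 1 higher (MAPK3). MAPK3, which encodes ERK1, had the largest difference (31.7 ± 6.49 and 45.1 ± 4.32 FPKM, SD, n = 3; 0.51, limma adjusted p = 0.0659). MAPK3 was called higher in 4 of 15 alternatives, among them TPM and the fit without siNC replicate 3 (0.67, adjusted p = 0.0249; 0.0180 to 0.215 over the alternatives). Of the adaptors and RAS genes, 2 of 13 rose and 1 fell, beside 6.07% higher and 9.85% lower over all genes. These counts are too small to set against those shares. The RAS relative MRAS rose by 0.75 (4.38 ± 0.253 to 8.06 ± 0.278 FPKM, SD, n = 3; limma adjusted p = 0.00171) and the phosphatase PTPN11 (SHP2), which promotes RAS activation, by 0.77 (adjusted p = 0.0166). FRS2, the docking protein of FGF receptors, fell by 0.59 (limma adjusted p = 0.0214); at 1.63 FPKM in siNC and 0.738 FPKM in siSHMT2 it passed the filter only through siNC. PTPN11 lost its call when siNC replicate 3 or siSHMT2 replicate 1 or 2 was left out (adjusted p 0.0563 to 0.0659, and 0.000557 to 0.0720 over 15 alternatives), and FRS2 was called in 6 of 14 alternatives (0.000832 to 0.0949), its call ending without siNC replicate 1 or 3 or any 1 siSHMT2 library.

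Among the JNK and p38 kinases, on which DUSP10 and DUSP1 act, 2 of 12 tested genes fell and 1 rose, beside 9.85% lower and 6.07% higher over all genes. Such counts are too small to set against those shares. MAPK14, which encodes p38 alpha, fell by 0.47 (7.48 ± 0.308 to 5.11 ± 0.149 FPKM, SD, n = 3; limma adjusted p = 0.00989), and the upstream kinase MAP3K20 by 0.60 (adjusted p = 0.00836). MAPK11, which encodes p38 beta, rose by 0.73 (limma adjusted p = 0.0179). With TPM neither MAPK14 (0.0930) nor MAP3K20 (0.0632) was called, and MAPK14 was also lost when siSHMT2 replicate 1 or 3 was left out (0.0658 and 0.0550). MAPK11 lost its call when siNC replicate 3 or any 1 siSHMT2 library was left out (0.0566 to 0.0694).

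The remaining brakes on the pathway were mixed, and too few to set against the 9.85% lower and 6.07% higher over all genes. DUSP7, an ERK phosphatase related to DUSP6, was the only tested gene of 5 other DUSPs; it was 9.31, 9.03 and 7.92 FPKM in siNC and 6.88, 6.81 and 7.23 FPKM in siSHMT2. Its groups did not overlap, but it was not called (-0.29, limma adjusted p = 0.0823). DUSP16 was listed at 0 in all 6 libraries. Of 8 tested Sprouty, SPRED and RAS brakes, RASA2, a RAS GTPase-activating protein, fell by 0.71 (3.44 ± 0.430 to 1.72 ± 0.304 FPKM, SD, n = 3; limma adjusted p = 0.00864) and ERRFI1, an inhibitor of the EGF receptor, rose by 0.37 (adjusted p = 0.0492). ERRFI1 kept its call in 4 of 15 alternatives (adjusted p 0.00433 to 0.170) and lost it without siNC replicate 2 or 3 or any 1 siSHMT2 library. NF1, the partner of the SPRED proteins, was 1.72 ± 0.203 and 1.62 ± 0.0406 FPKM (SD, n = 3; limma adjusted p = 0.765). SPRY1 and SPRY3 lay below the filter, at means of 0.0250 and 0.168 FPKM in siNC.

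**Figure D3:**
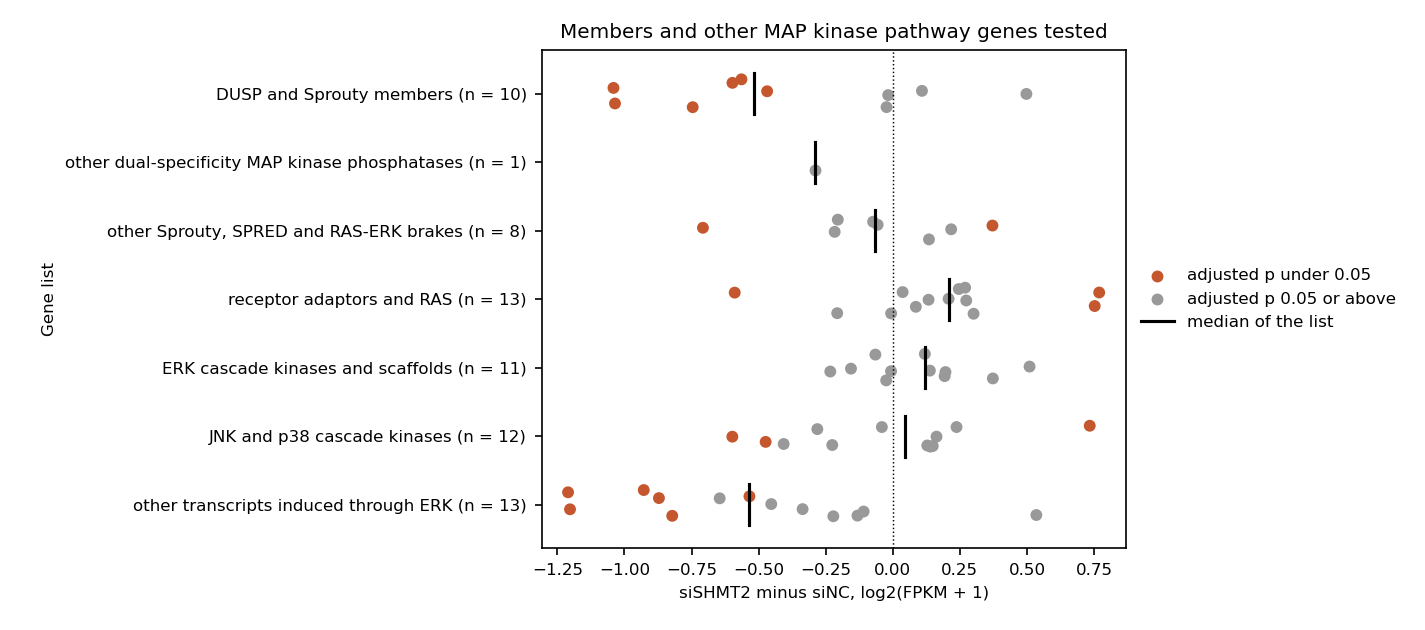
Difference between siSHMT2 and siNC on the log2(FPKM + 1) scale (horizontal axis) for every tested gene of the feedback members and of 6 pathway lists; each point is a gene, orange marks an adjusted p under 0.05 and the black line the median. The members (median -0.52) and the other transcripts induced through ERK (median -0.53) lie to the left, and the ERK cascade kinases (median 0.12) hold no called gene. FOS, IER3 and FRS2 are included although they passed the filter on low values only through siNC.

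The genes whose levels over the 6 libraries were most like those of DUSP6 were C16orf72, ACSL4 and GPR180 (Pearson r = 0.999, 0.996 and 0.996). Those most like SPRY4 were CXCL1, PSMA4 and TMEM158 (r = 0.999, 0.999 and 0.997). With 2 groups of 3 libraries such values mostly follow the group difference: of 9479 protein-coding genes outside the members, 902 had an r over 0.9 with DUSP6 and 873 with SPRY4.

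**Figure D4:**
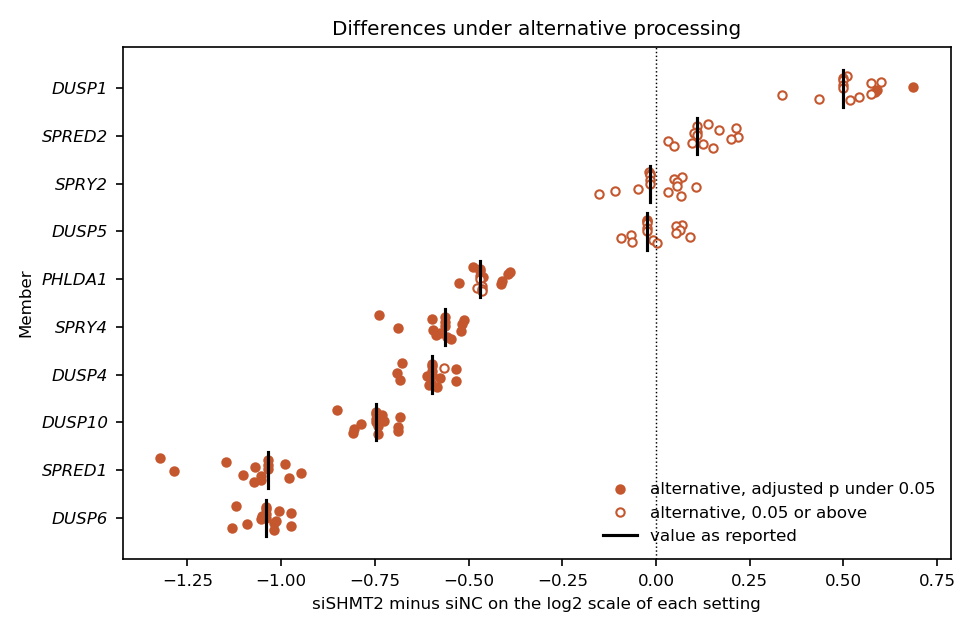
Difference between siSHMT2 and siNC (horizontal axis, log2 scale of each setting) of every member under up to 15 alternative settings; filled points have an adjusted p under 0.05, open points do not, and the black line is the value as reported. DUSP6, SPRED1, DUSP10 and SPRY4 are filled throughout, PHLDA1 and DUSP4 are mixed, and DUSP5 and SPRY2 fall on both sides of 0.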

How the data were processed

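The authors deposited 1 table of FPKM values for 6 libraries. The submitters' processing notes name the tools featureCounts 1.5.0-p3 and HISAT2 2.0.5 and the build hg18; per the labels, libraries came from total RNA with a SMARTer kit. The coordinates did not match hg18: of 58516 identifiers also in GENCODE release 29, 99.9% overlapped their GRCh38 position, so positions are printed as deposited, on GRCh38. Multiplied by gene length, 100% of the FPKM values above 0 were whole multiples (within 0.02) of 1 step per library, which gave back reads.

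Genes averaging 1 FPKM or more were tested with limma 3.58.1 (R 4.3.3) on log2(FPKM + 1), with trended moderation and Benjamini-Hochberg adjustment, and without covariates. Such differences understate the change of low genes. The fit was also run on simulated reads with the same dispersion in both groups. In these libraries the median SD was 0.191 in siNC and 0.105 in siSHMT2. That run therefore does not measure how reliable the calls here are. 3′ UTRs (the longest per gene, at least 50 bases) were searched in Python 3.11.15. Groups and replicate numbers came from the sample titles.

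All 10 members, SHMT2, up to 4 tested genes with the smallest adjusted p of each pathway list, and 3 genes most like DUSP6 and SPRY4 were named; other named genes were added for their calls or roles. Members and lists were chosen with earlier results of these data known. No p-value is given for a list.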

Additional observations from a re-analysis of the deposited data

How the results depend on the processing

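Calls of DUSP6, DUSP10, SPRY4 and SPRED1 held in every alternative in which they were tested (15, 15, 14 and 14). The count of members called lower was 4 among genes averaging 5 FPKM or more, where only 7 were tested, and 5 or 6 otherwise; the count called higher was 1 with array weights and 1 by voom on recovered reads, which was added after seeing the data, both times DUSP1. Leaving out 1 library gave 5 to 6 members lower and 0 to 1 higher, 6 to 11 pathway genes lower and 1 to 5 higher, and 502 to 1124 of all genes lower and 228 to 731 higher. Pathway genes called lower were 5 with the filter at 5 FPKM, 5 with TPM and 17 with array weights, and those called higher were 1 without a filter and 10 with array weights. Over all genes, 603 were lower and 333 higher without a filter, 618 lower with the filter at 5 FPKM, 620 lower with TPM, and 1976 lower and 1827 higher with array weights. The filter set how many genes were tested: 27069 without it, 10865 as reported and 5961 at 5 FPKM. The totals behind the deposited FPKM were 0.957 to 1.117 times the recovered reads in siNC libraries and 1.053 to 1.126 times in siSHMT2 libraries. The part of these in the shifts was not tested. The replicate block gave 696 lower and 374 higher. Replicate numbers did not pair the libraries: deviations of same-numbered libraries correlated at -0.018, -0.35 and 0.24, and siNC replicate 1 correlated best with siSHMT2 replicate 2 (0.50). The planned count models were not run, since the deposited unit is FPKM. On log2(FPKM + 1), which shrinks the spread of low genes, depth did not strictly order the error of the members. There the SE was 0.095 for SPRY4, at 215 to 397 reads a library, and 0.155 for DUSP1, at 777 to 1607 reads. By voom the SE was 0.150 for SPRY4 and 0.167 for DUSP1. The smallest by voom was 0.102 for PHLDA1, at 2400 to 3453 reads, and the largest 0.223 for SPRY2, at 264 to 416 reads.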

Other observations

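Several other MAP kinase phosphatases lay below the filter, among them PTPRR and DUSP9. PTPRR, a receptor-type tyrosine phosphatase that binds ERK, was 0.624, 0.973 and 0.631 FPKM in siNC, from 55, 71 and 50 reads, and 0.161, 0.168 and 0.201 FPKM in siSHMT2, from 13, 14 and 16 reads. The groups did not overlap. Without a filter its log2 difference was -0.56 (limma adjusted p = 0.0476), and it was singled out after its values were seen. IL17RD, a brake on the pathway that also lay below the filter, went the other way. It was 0.0658, 0.00722 and 0.0199 FPKM in siNC and 0.104, 0.0946 and 0.119 FPKM in siSHMT2. These values rest on 1 to 18 reads a library. The groups of DUSP2, DUSP8 and PTPN7, below the filter as well, overlapped.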
